A study of Mus musculus with 568 samples.

Results

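The 49 genes described here act in G2 and mitosis, from the kinase complex that starts mitosis to the proteins that cut the daughter cells apart. They were chosen by name for these known roles, and all 49 are among the 16335 genes of the bulk RNA table and the 15718 genes of the single-cell table. They lie on 18 chromosomes, with 0 on the X chromosome. They were sorted by role into 8 groups: *Cdk1* and its partners (5 genes), Aurora kinases and partners (5), centromere and kinetochore (6), spindle checkpoint and anaphase-promoting complex (5), spindle and microtubules (12), cytokinesis (5), chromosome structure (5), and nuclear envelope, chromatin and others (6).

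RNA was measured in 16 bulk libraries (4 per group: embryonic stem cells or ESCs, epiblast-like cells or EpiLCs, and primordial germ cell-like cells or PGCLCs in an XGFP+ and an XGFP- group), and in single cells from reconstituted ovaries (rOvaries). All cells came from XRep, a female hybrid 129S1/SvImJ, CAST/EiJ mouse ESC line with a truncated *Tsix* on the mus X chromosome, a GFP reporter on that X and a tdTomato reporter on the cas X, both at *Hprt*, a reverse tetracycline transactivator at *Rosa26*, and doxycycline-inducible *Prdm1*, *Prdm14* and *Tfap2c*. These features were shared by all groups, controls included. ESCs and EpiLCs (4 days of differentiation) were not sorted, and PGCLCs (5 more days in aggregates with doxycycline) were sorted as CD61+ SSEA1+ cells with the mus X reporter on (XGFP+) or off (XGFP-). For rOvaries, XGFP+ or XGFP- PGCLCs were cultured for 6 days with somatic cells of embryonic female gonads. Cells from XGFP+ PGCLCs are called XGFP+ constitutive, and those from XGFP- PGCLCs were sorted by GFP level into XGFPhigh, XGFPintermediate and XGFPlow. Bulk libraries held 29778299 to 46533858 reads on genes, and 401 rOvary cells and 24 ESCs with a median of 358391 to 1103780 reads per cell and population were used. Germ cell markers summed to 684.9 to 868.5 RPM (reads scaled to a total of 1000000 per library or cell) in PGCLCs, 52.2 to 83.3 in EpiLCs and 243.9 to 258.1 in ESCs. These markers include the doxycycline-inducible *Prdm1*, *Prdm14* and *Tfap2c*, so transgene RNA may add to their sum in PGCLCs. Epiblast-like markers summed to 1419 to 1659 in EpiLCs, and gonadal somatic markers to 1.14 to 3.26 in PGCLCs and 6.17 to 13.1 in EpiLCs and ESCs. The 4 libraries of a group are described in the study both as 4 biological replicates and as clones with technical replicates, so the p-values may be too small.

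A cell enters mitosis when cyclin B binds Cdk1 and the phosphatase Cdc25 activates the pair. Aurora kinases and microtubule proteins then build the spindle, the checkpoint kinases hold anaphase until every kinetochore is attached, and Cdc20 and Ube2c let the anaphase-promoting complex degrade cyclin B. Transcripts of most of these genes peak in G2 and M, because promoters with a cell cycle homology region (TTTGAA or TTCGAA) and CCAAT boxes are silenced in G1. Germ cells stop mitotic division when they enter meiosis, in which some of the same proteins serve the meiotic divisions. In bulk RNA, fewer cells in G2 and M and less RNA of a gene per such cell cannot be told apart.

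RefSeq promoter windows of 300 bases (GRCm38.p6, 250 before to 50 after the transcription start) were matched by symbol for 43 of the 49 genes, in 47 windows. *Cdc25c*, *Aurkb*, *Tpx2*, *Dlgap5*, *Smc4* and *Cdca2* had no entry. Either form of the homology region, read on both strands, stood in 36 of the 47 windows (76.6%), against 19.2% of all 32851 windows. CCAAT on either strand stood in 36 of the 47 windows (76.6%), against 37.4% of all, and at least 2 CCAAT in 59.6%, against 11.7%. Both kinds of motif were found in 63.8% of these windows and 7.52% of all. Neighbouring windows of 1 gene overlap, and a match is only a match of letters. 4 promoters are shown because their genes gave the largest differences below. *Psrc1*, which codes for a microtubule-binding spindle protein, differed most between the bulk groups, *Ube2c* was far lower in rOvary cells with high *Sycp3* than in the others, and *Bub1* and *Kif23* were higher there. Capitals mark these motifs and their reverse complements, and each window is on the strand of its gene (chr3:108383554-108383853 plus strand, chr2:164769679-164769978 plus strand, chr2:127831810-127832109 minus strand and chr9:61946750-61947049 minus strand).
Psrc1: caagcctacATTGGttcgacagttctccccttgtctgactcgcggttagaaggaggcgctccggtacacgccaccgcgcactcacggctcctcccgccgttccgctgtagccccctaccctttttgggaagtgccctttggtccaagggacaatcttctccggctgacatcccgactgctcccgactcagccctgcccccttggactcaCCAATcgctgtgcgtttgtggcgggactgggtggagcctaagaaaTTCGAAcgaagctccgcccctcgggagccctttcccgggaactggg
Ube2c: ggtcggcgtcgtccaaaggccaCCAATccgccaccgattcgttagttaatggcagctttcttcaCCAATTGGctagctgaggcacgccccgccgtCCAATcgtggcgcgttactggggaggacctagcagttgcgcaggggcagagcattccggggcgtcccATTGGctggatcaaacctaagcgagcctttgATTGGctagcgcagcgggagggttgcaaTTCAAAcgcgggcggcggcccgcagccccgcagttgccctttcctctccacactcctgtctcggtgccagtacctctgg
Bub1: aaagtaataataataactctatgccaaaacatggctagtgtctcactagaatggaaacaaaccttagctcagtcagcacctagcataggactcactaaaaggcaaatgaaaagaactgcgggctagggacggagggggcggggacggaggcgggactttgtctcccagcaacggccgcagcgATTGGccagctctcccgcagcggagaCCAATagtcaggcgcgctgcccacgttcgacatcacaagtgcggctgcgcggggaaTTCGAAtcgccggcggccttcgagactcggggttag
Kif23: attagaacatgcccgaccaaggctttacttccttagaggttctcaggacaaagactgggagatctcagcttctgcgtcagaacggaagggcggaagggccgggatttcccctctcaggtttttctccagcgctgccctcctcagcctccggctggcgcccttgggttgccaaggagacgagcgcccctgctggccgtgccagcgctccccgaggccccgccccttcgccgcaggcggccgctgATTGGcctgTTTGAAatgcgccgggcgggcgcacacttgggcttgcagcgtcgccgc
The *Ube2c* window held 6 CCAAT matches (1 pair of them overlapping) and 1 TTTGAA match, and *Kif23* held 1 of each. The *Psrc1* and *Bub1* windows shown each held 1 TTCGAA, which only 1.56% of all windows held, beside 2 CCAAT. A second, overlapping *Psrc1* window held 1 TTCGAA and 1 CCAAT. All 4 windows shown held a match of each kind of motif, as did 63.8% of the 47 windows. A relation of the motifs to the direction of a difference was not tested.

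As a sum, the 49 genes took a similar share of the RNA in each group. The lowest mean was in ESCs by RPM and in XGFP- PGCLCs per kilobase of exon. They summed to 9589 ± 229.3 RPM (SD, n = 4) in ESCs and 10421 ± 408 in EpiLCs. In XGFP+ PGCLCs the sum was 10477 ± 222.3 and in XGFP- PGCLCs 10021 ± 667.5. The libraries of EpiLCs and both PGCLC groups overlapped, while all ESC libraries lay below all EpiLC and XGFP+ PGCLC libraries. Per kilobase of exon, the sum was 2297.9 to 2503.7 in EpiLC and 2151.9 to 2205.2 in XGFP+ PGCLC libraries, without overlap. The mean per kilobase was 2041.1 in XGFP- PGCLCs and 2135.7 in ESCs. By that measure ESC libraries (2086.0 to 2175.7) overlapped those of XGFP+ PGCLCs. Without the 3 highest genes, the means were 7955.3 RPM in EpiLCs and 7579.5 in XGFP+ PGCLCs, and the libraries of these 2 groups overlapped. 28 of the 49 varied by less than 1.5-fold between the highest and the lowest group mean, with a median of 1.40-fold, and 10 varied by more than 2-fold, led by *Psrc1* at 16.7-fold. The same counts were not made over all genes. The group with the highest mean was EpiLC for 16 genes, XGFP- PGCLC for 13, ESC for 11 and XGFP+ PGCLC for 9.

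**Figure D1:**
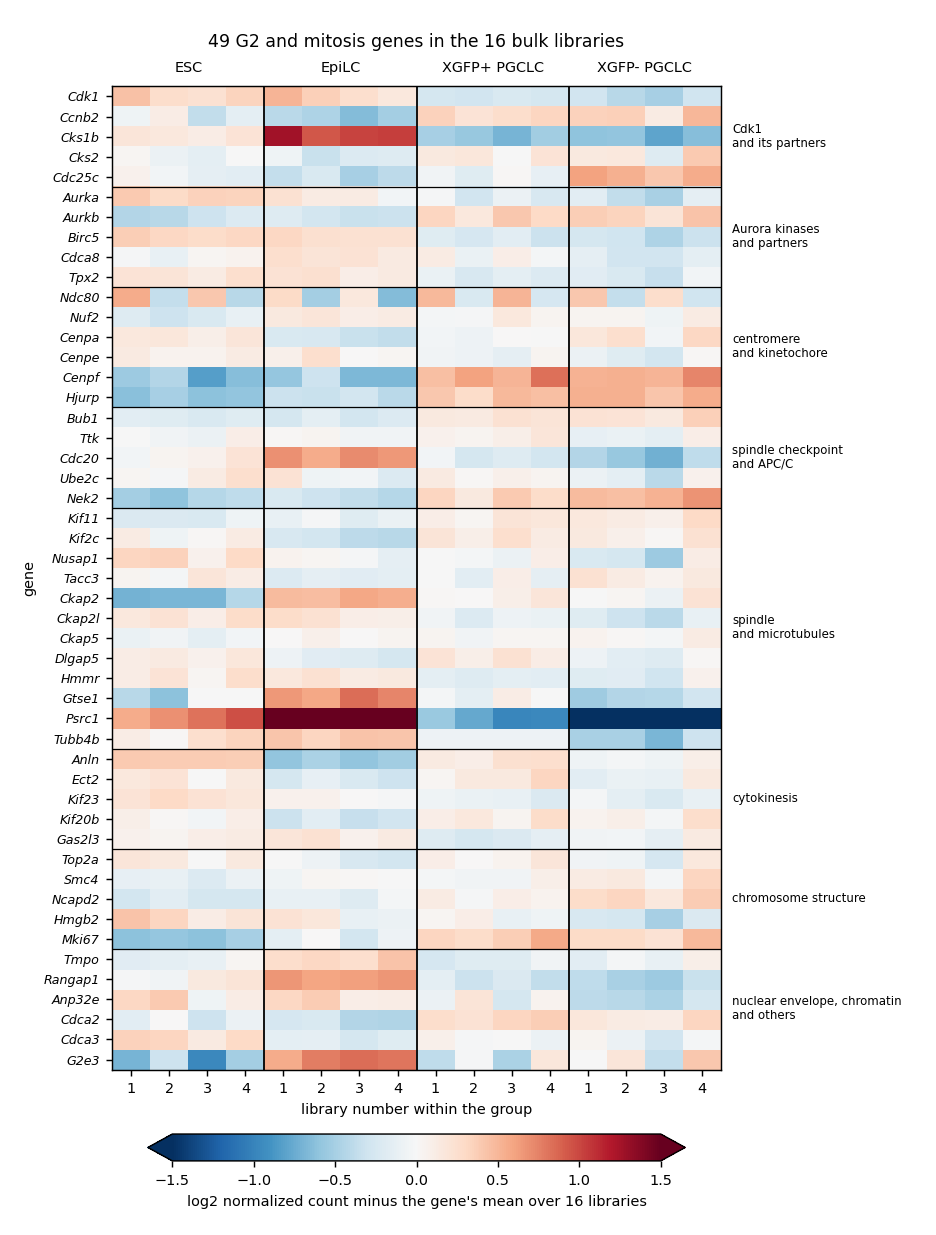
Rows are the 49 genes by role and columns the 16 bulk libraries, and colour gives the log2 normalized count minus the gene's mean over the 16 libraries (clipped at 1.5 in either direction). *Psrc1* and *Cks1b* were highest in EpiLCs and low in both PGCLC groups, *Cenpf*, *Hjurp* and *Nek2* were highest in PGCLCs, and the *Ndc80* row alternates between odd and even library numbers.

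Called genes are those with an FDR below 0.001 (limma on log2 of the normalized count plus 1, adjusted over 16281 genes), and a fold change is a difference on that log2 scale. Between EpiLCs and ESCs, 11 of the 49 genes were higher in EpiLCs and 8 lower, against 24.9% and 22.9% of all genes tested, and their median log2 fold change was 0.0003, against 0.0088 over all genes. Without ESC replicate 1, ESC replicate 4 or EpiLC replicate 4, 5 genes were lower instead of 8. From EpiLCs to XGFP+ PGCLCs, 13 rose and 14 fell (27.8% and 29.5% of all genes), with a median of 0.01 against -0.0042. From EpiLCs to XGFP- PGCLCs, 16 rose and 17 fell (29.9% and 31.9% of all genes), with a median of -0.06 against -0.03. Between XGFP+ PGCLCs and ESCs, 11 were higher in PGCLCs and 11 lower (25% and 24.9% of all genes), with a median of -0.02 against 0.0018. The share of the 49 genes called was near that of all genes in these comparisons, and furthest below it for genes lower in EpiLCs than in ESCs (16.3%). The comparisons share libraries, EpiLCs standing in 3 of them.

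Among *Cdk1* and its partners listed here, the kinase fell and *Ccnb2*, the only cyclin gene among them, rose from EpiLCs to PGCLCs. *Cdk1* had normalized counts of 8395, 7477, 7256 and 7845 in the 4 ESC libraries, 8875, 7950, 7399 and 6913 in EpiLCs, 5192, 5073, 5304 and 5155 in XGFP+ PGCLCs and 5088, 4667, 4396 and 5061 in XGFP- PGCLCs. The ESC and EpiLC libraries all lay above all PGCLC libraries, and the fold change from EpiLCs was -0.58 ± 0.07 (SE), FDR = 4.87e-07 to XGFP+ PGCLCs and -0.69 ± 0.07 (SE), FDR = 3.85e-08 to XGFP- PGCLCs. *Ccnb2* had normalized counts of 3768, 4282, 3067 and 3576 in the 4 ESC libraries, 2992, 2868, 2525 and 2786 in EpiLCs, 5025, 4558, 4754 and 4961 in XGFP+ PGCLCs and 5035, 5081, 4322 and 5571 in XGFP- PGCLCs. This cyclin B2 gene went the other way, lowest in EpiLCs and 0.79 (XGFP+) and 0.84 (XGFP-) higher on the log2 scale in PGCLCs, with no overlap between PGCLC and EpiLC libraries. *Cks1b* had normalized counts of 2665, 2606, 2537 and 2704 in the 4 ESC libraries, 5624, 4455, 4741 and 4791 in EpiLCs, 1664, 1578, 1450 and 1627 in XGFP+ PGCLCs and 1537, 1554, 1357 and 1502 in XGFP- PGCLCs. *Cks1b*, a small Cdk-binding subunit that also serves degradation of the Cdk inhibitor p27, rose from ESCs to EpiLCs (0.89 ± 0.07 (SE), FDR = 1.44e-09) and fell to below the ESC level in PGCLCs (-1.63 ± 0.07 (SE), FDR = 3.02e-13, in XGFP+ PGCLCs against EpiLCs). Its paralog *Cks2* was not called in any comparison (log2 fold change 0.33 in XGFP+ PGCLCs against EpiLCs). *Cdc25c*, the phosphatase that activates Cdk1, is described with the XGFP- comparison below.

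Aurora A and Aurora B, the kinases of the spindle poles and of the centromeres, also parted. *Aurka* had normalized counts of 4849, 4505, 4698 and 4660 in the 4 ESC libraries, 4339, 4006, 4002 and 3580 in EpiLCs, 3643, 3015, 3484 and 3114 in XGFP+ PGCLCs and 3306, 2847, 2624 and 3367 in XGFP- PGCLCs. *Aurka* was lower than in ESCs in XGFP+ PGCLCs (-0.50 ± 0.08 (SE), FDR = 2.29e-05) and lower than in EpiLCs in XGFP- PGCLCs (-0.40). *Aurkb* had normalized counts of 1624, 1656, 1783 and 1921 in the 4 ESC libraries, 1932, 1830, 1745 and 1760 in EpiLCs, 2755, 2461, 2917 and 2707 in XGFP+ PGCLCs and 2844, 2779, 2521 and 2977 in XGFP- PGCLCs. Every PGCLC library of *Aurkb* lay above every ESC and EpiLC library, with a fold change of 0.58 ± 0.07 (SE), FDR = 4.51e-07 in XGFP+ PGCLCs against EpiLCs. *Birc5*, which codes for survivin, a partner of Aurora B in the chromosomal passenger complex, did not follow its kinase. *Birc5* had normalized counts of 3572, 3439, 3370 and 3432 in the 4 ESC libraries, 3426, 3264, 3241 and 3247 in EpiLCs, 2452, 2337, 2475 and 2225 in XGFP+ PGCLCs and 2315, 2253, 2005 and 2221 in XGFP- PGCLCs. *Birc5* fell by 0.47 (XGFP+, FDR = 1.93e-07) and 0.59 (XGFP-, FDR = 8.95e-09) on the log2 scale from EpiLCs, again without overlap. The third member of that complex in the list, *Cdca8* (borealin), was called lower than in EpiLCs in XGFP- PGCLCs (-0.41 ± 0.06 (SE), FDR = 6.13e-06). *Cdca8* had normalized counts of 2581, 2426, 2662 and 2712 in the 4 ESC libraries, 3116, 2977, 3036 and 2860 in EpiLCs, 2837, 2436, 2806 and 2568 in XGFP+ PGCLCs and 2387, 2146, 2136 and 2360 in XGFP- PGCLCs. The XGFP+ value of -0.17 was not called although its 4 libraries lay below those of EpiLCs, and the difference between the PGCLC groups (-0.24) was not called. *Tpx2*, the activator of Aurora A, fell in both (-0.35 and -0.37).

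Of the 6 centromere and kinetochore genes, the 2 called in XGFP+ PGCLCs and the 3 called in XGFP- PGCLCs against EpiLCs were all higher, where 27.8% and 29.9% of all genes tested were higher. *Cenpf* had normalized counts of 7556, 8146, 6213 and 7088 in the 4 ESC libraries, 7355, 8895, 6879 and 6921 in EpiLCs, 15047, 16705, 15724 and 19585 in XGFP+ PGCLCs and 15743, 15874, 15666 and 18252 in XGFP- PGCLCs. *Cenpf*, a large protein of the outer kinetochore and the nuclear envelope, rose in PGCLCs, with every PGCLC library above every EpiLC and ESC library (1.16 ± 0.10 (SE), FDR = 3.39e-09, in XGFP+ PGCLCs against EpiLCs). *Hjurp* had normalized counts of 8664, 9501, 8761 and 8915 in the 4 ESC libraries, 10713, 10630, 11044 and 10116 in EpiLCs, 17800, 16251, 18730 and 18383 in XGFP+ PGCLCs and 19466, 19408, 17844 and 19778 in XGFP- PGCLCs. *Hjurp*, the chaperone that places the centromeric histone Cenpa, rose in steps from ESCs to EpiLCs (0.25) and on to XGFP+ PGCLCs (0.74 ± 0.05 (SE), FDR = 4.11e-10). *Cenpa* itself moved less. *Cenpa* had normalized counts of 3619, 3647, 3430 and 3657 in the 4 ESC libraries, 2758, 2736, 2575 and 2506 in EpiLCs, 3149, 3061, 3240 and 3234 in XGFP+ PGCLCs and 3646, 3845, 3143 and 3997 in XGFP- PGCLCs. It was lower in EpiLCs than in ESCs (-0.44 ± 0.06 (SE), FDR = 6e-06) and higher in XGFP- PGCLCs than in EpiLCs (0.46), while the XGFP+ PGCLC value of 0.26 was not called. The kinesin *Cenpe* was not called in any comparison (log2 fold changes from -0.22 to 0.00).

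*Ndc80*, the core of the microtubule-binding complex of the kinetochore, differed by library number rather than by group. *Ndc80* had normalized counts of 2375, 1263, 2144 and 1208 in the 4 ESC libraries, 1971, 1135, 1807 and 1033 in EpiLCs, 2270, 1377, 2310 and 1363 in XGFP+ PGCLCs and 2135, 1267, 1940 and 1311 in XGFP- PGCLCs. In each of the 4 groups the libraries numbered 1 and 3 lay above those numbered 2 and 4, by at least 1.3-fold between the nearest libraries. *Ndc80* was the only one of the 49 genes with this pattern at that fold, and of the 16281 genes tested 3 had it and 2 had the opposite one. This was looked for after its values were seen, the labels do not name the clone of a library, and the cause was not tested. Its standard error of 0.26 was the largest of the 49 genes, and its changes between groups were not called. With the replicate number as a block, *Ndc80* was called higher in XGFP+ PGCLCs than in EpiLCs. Its partner *Nuf2* showed no such alternation, with 1539, 1545, 1746 and 1617 in XGFP+ PGCLCs.

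**Figure D2:**
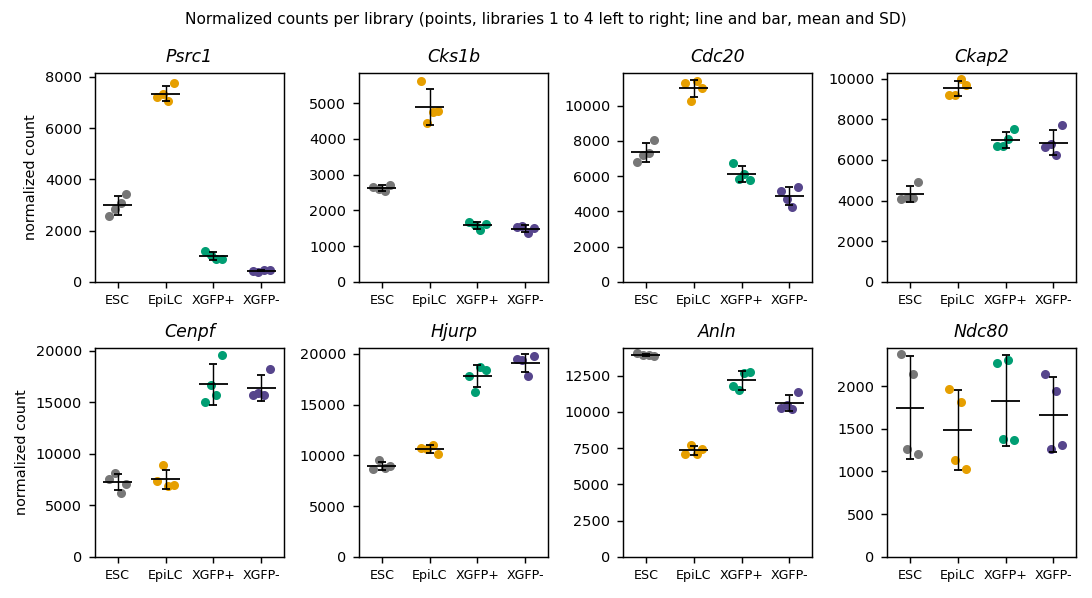
Normalized counts of 8 genes, with 1 point for each of 4 libraries per group (libraries 1 to 4 from left to right), a line at the mean and bars for the SD. *Psrc1*, *Cks1b*, *Cdc20* and *Ckap2* were highest in EpiLCs, *Anln* was lowest there, *Cenpf* and *Hjurp* were highest in PGCLCs, and the points of *Ndc80* fall into an upper and a lower pair in each group.

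Among the genes of checkpoint and anaphase, the kinases *Bub1* and *Nek2* rose and the activator *Cdc20* fell from EpiLCs to PGCLCs. *Bub1*, a checkpoint kinase that also protects cohesion at centromeres, rose in both PGCLC groups (0.40 ± 0.05 (SE), FDR = 6.93e-07 in XGFP+ and 0.46 in XGFP- PGCLCs against EpiLCs). *Nek2* had normalized counts of 3364, 3137, 3570 and 3673 in the 4 ESC libraries, 4073, 3862, 3702 and 3561 in EpiLCs, 6002, 5282, 6262 and 5788 in XGFP+ PGCLCs and 6632, 6545, 6842 and 7648 in XGFP- PGCLCs. *Nek2*, a kinase of centrosome separation, was highest in XGFP- PGCLCs (0.86 ± 0.07 (SE), FDR = 1.05e-09, against EpiLCs). *Cdc20* had normalized counts of 6815, 7184, 7305 and 8064 in the 4 ESC libraries, 11271, 10288, 11383 and 11006 in EpiLCs, 6769, 5838, 6111 and 5768 in XGFP+ PGCLCs and 5134, 4699, 4241 and 5382 in XGFP- PGCLCs. *Cdc20*, the activator of the anaphase-promoting complex, rose from ESCs to EpiLCs (0.58 ± 0.07 (SE), FDR = 1.07e-06), then fell by 0.85 on the log2 scale to XGFP+ and by 1.18 to XGFP- PGCLCs. The ubiquitin-conjugating enzyme *Ube2c* and the checkpoint kinase *Ttk* (Mps1) were not called in any comparison, and *Ube2c* differed by 0.09 between XGFP+ PGCLCs and EpiLCs.

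The 12 spindle and microtubule genes held the largest changes. *Psrc1* had normalized counts of 2585, 2828, 3093 and 3437 in the 4 ESC libraries, 7205, 7329, 7065 and 7771 in EpiLCs, 1199, 1036, 896 and 897 in XGFP+ PGCLCs and 434, 399, 465 and 465 in XGFP- PGCLCs. *Psrc1* rose in EpiLCs (1.305 ± 0.09 (SE), FDR = 6.03e-10) and fell in PGCLCs to a level below that of ESCs, with log2 fold changes of -2.87 ± 0.09 (SE), FDR = 1.2e-14 in XGFP+ and -4.06 ± 0.09 (SE), FDR = 8.96e-17 in XGFP- PGCLCs against EpiLCs, with no overlap between any of the 4 groups. *Ckap2* had normalized counts of 4073, 4128, 4136 and 4937 in the 4 ESC libraries, 9210, 9186, 9963 and 9711 in EpiLCs, 6707, 6691, 7048 and 7525 in XGFP+ PGCLCs and 6644, 6804, 6240 and 7732 in XGFP- PGCLCs. *Ckap2*, a microtubule-stabilizing protein, rose in EpiLCs (1.14 ± 0.07 (SE), FDR = 5.96e-11) and in PGCLCs stayed between the ESC and EpiLC levels (-0.45, XGFP+ against EpiLCs). *Gtse1*, a microtubule-binding protein that also restrains p53, rose by 0.96 in EpiLCs and fell by 0.71 in XGFP+ and 1.12 in XGFP- PGCLCs. *Tubb4b* had normalized counts of 18363, 17301, 20295 and 21407 in the 4 ESC libraries, 22781, 21337, 22876 and 22695 in EpiLCs, 16223, 16141, 16130 and 16133 in XGFP+ PGCLCs and 12158, 12161, 10588 and 13693 in XGFP- PGCLCs. *Tubb4b*, a beta-tubulin, was lower in each PGCLC group than in EpiLCs (-0.47 and -0.89). Per exon length it was the most abundant of the 49 genes, with a mean of 222.3 RPM per kilobase over the 16 libraries, followed by *Cks2* with 159.9 and *Top2a* with 155.4, and *Cdc25c* the least with 5.47. *Kif2c*, a kinesin that takes microtubules apart, went the other way to *Psrc1* and *Ckap2*, lower in EpiLCs than in ESCs (-0.38) and higher in both PGCLC groups than in EpiLCs (0.49 and 0.45). *Ckap5*, a microtubule polymerase, changed least of all (log2 fold changes from -0.02 to 0.12 over the 5 comparisons, with no call). *Kif11*, the kinesin that pushes the spindle poles apart, and *Tacc3*, a partner of Ckap5, rose in XGFP- PGCLCs against EpiLCs (0.26 and 0.30). The spindle proteins *Ckap2l* (-0.42) and *Hmmr* (-0.31) fell there, and *Nusap1* was not called in any comparison.

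Of the 5 cytokinesis genes, the 3 called between EpiLCs and ESCs were all lower in EpiLCs, where 24.9% of all genes tested were higher and 22.9% lower. *Anln* had normalized counts of 14037, 13906, 13914 and 13832 in the 4 ESC libraries, 7107, 7705, 7091 and 7448 in EpiLCs, 11770, 11474, 12642 and 12762 in XGFP+ PGCLCs and 10241, 10481, 10196 and 11394 in XGFP- PGCLCs. *Anln*, which codes for anillin, the scaffold of the contractile ring, fell by 0.92 on the log2 scale in EpiLCs (FDR = 8.58e-12) and rose again in XGFP+ PGCLCs (0.73 ± 0.05 (SE), FDR = 2.03e-10). *Ect2*, the exchange factor that activates RhoA at the cleavage furrow, and the kinesin *Kif20b* had the same order (-0.36 and -0.32 in EpiLCs against ESCs, then 0.39 and 0.42 in XGFP+ PGCLCs against EpiLCs), and all 4 values were called. The EpiLC against ESC calls of both were lost without ESC replicate 1, ESC replicate 4, EpiLC replicate 1 or EpiLC replicate 4, that of *Ect2* also without ESC replicate 2 or with libraries scaled to the same total, and that of *Kif20b* also without EpiLC replicate 3 or with quantile normalization. *Kif23*, the motor of centralspindlin, differed from EpiLCs by -0.15 and -0.16, with no call. *Gas2l3*, an actin and microtubule linker, fell in XGFP+ PGCLCs (-0.35 ± 0.06 (SE), FDR = 2.61e-05).

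Among the genes of chromosome structure, *Mki67*, the coat protein of mitotic chromosomes used to mark proliferating cells, was the only one called in XGFP+ PGCLCs against EpiLCs. *Mki67* had normalized counts of 17672, 18163, 17746 and 19136 in the 4 ESC libraries, 24471, 27169, 22425 and 25655 in EpiLCs, 33841, 32696, 35046 and 40033 in XGFP+ PGCLCs and 33101, 33116, 31540 and 37957 in XGFP- PGCLCs. All PGCLC libraries lay above all EpiLC libraries, which lay above all ESC libraries, with 0.45 ± 0.07 (SE), FDR = 1.94e-05 for the first step and 0.51 ± 0.07 (SE), FDR = 4.18e-06 for the second. *Top2a* had normalized counts of 59770, 58254, 52540 and 58089 in the 4 ESC libraries, 52674, 49947, 44756 and 43543 in EpiLCs, 56234, 53070, 54759 and 59664 in XGFP+ PGCLCs and 50768, 50420, 44156 and 58836 in XGFP- PGCLCs. *Top2a*, the topoisomerase that untangles sister chromatids, had the highest counts of the 49 genes and was not called in any comparison, though its EpiLC libraries lay just below those of XGFP+ PGCLCs. The condensin gene *Ncapd2* rose in XGFP- PGCLCs (0.40 against EpiLCs), and its partner *Smc4* was not called (0.15). *Hmgb2*, a chromatin protein, was not called either (-0.35).

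In the last group, *Rangap1*, the activator of the Ran GTPase, and *Tmpo*, a lamina protein, rose in EpiLCs (0.57 and 0.42) and fell in PGCLCs (-0.90 and -0.48 in XGFP+, -1.07 and -0.36 in XGFP-). The call of *Tmpo* in XGFP- PGCLCs was lost with quantile normalization. *G2e3* had normalized counts of 2886, 3783, 2402 and 3290 in the 4 ESC libraries, 6924, 7996, 8371 and 8219 in EpiLCs, 3595, 4620, 3388 and 5295 in XGFP+ PGCLCs and 4667, 5339, 3655 and 6238 in XGFP- PGCLCs. *G2e3*, a ubiquitin ligase of G2, had the largest rise in EpiLCs of the 49 genes (1.37 ± 0.16 (SE), FDR = 4.81e-07), with a wide spread in the other groups. *Cdca2* (Repo-Man), a targeting subunit of phosphatase 1 on chromatin, rose in both PGCLC groups (0.63 and 0.52), and the histone chaperone *Anp32e* fell in XGFP- PGCLCs (-0.61). *Cdca3* had normalized counts of 3876, 3804, 3334 and 3751 in the 4 ESC libraries, 2752, 2772, 2538 and 2677 in EpiLCs, 3210, 3000, 3026 and 2867 in XGFP+ PGCLCs and 3121, 2870, 2487 and 2977 in XGFP- PGCLCs. *Cdca3*, which takes part in the degradation of the Wee1 kinase, was lower in EpiLCs than in ESCs (-0.46 ± 0.07 (SE), FDR = 8.35e-06).

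Whether the state of the X chromosome went with another level of these genes was asked by comparing XGFP- with XGFP+ PGCLCs. 1 of the 49 genes was higher in XGFP- PGCLCs and 4 were lower, against 11.3% and 12.5% of all genes tested. With the replicate number as a block, 1 was higher and 7 (14.3% of the 49) were lower, against 12.2% and 13.4% of all genes, and at an FDR below 0.05 the counts were 7 and 12 (24.5% of the 49), against 25% and 23.6%. For 45 of the 49 the 95% interval of the difference lay within 1.5-fold in either direction, against 7941 of all 16281 genes tested. The median log2 fold change was -0.06, against 0.01 over all genes. *Psrc1* fell to well under the XGFP+ level in every library (-1.18 ± 0.09 (SE), FDR = 1.67e-08), and the 4 XGFP- values, 399 to 465, lay below the 4 XGFP+ values, 896 to 1199. *Cdc25c* had normalized counts of 1037, 960, 899 and 887 in the 4 ESC libraries, 775, 847, 699 and 756 in EpiLCs, 952, 876, 1005 and 907 in XGFP+ PGCLCs and 1502, 1435, 1312 and 1454 in XGFP- PGCLCs. *Cdc25c* was the gene that rose (0.61 ± 0.07 (SE), FDR = 2.44e-06), and its XGFP- libraries were above all others. *Tubb4b* (-0.42 ± 0.07 (SE), FDR = 9.25e-05), *Dlgap5* (-0.26 ± 0.06 (SE), FDR = 0.000816), a spindle protein also called HURP, and *Cdc20* (-0.33 ± 0.07 (SE), FDR = 0.000985) fell. Leaving out any 1 of the 16 libraries other than XGFP- PGCLC replicate 4 ended the call of *Cdc20*, of *Dlgap5* or of both, while *Psrc1*, *Tubb4b* and *Cdc25c* stayed called, and the genes called lower then numbered 2 to 5. The 3 genes added by the block were *Gtse1*, *Hmgb2* and *Anp32e*. The summed level of 6 naive ESC markers was 1154 to 1343 RPM in XGFP+ and 774.1 to 879.8 RPM in XGFP- PGCLCs, with *Tbx3* below a mean of 10 normalized counts in XGFP-. That of the 5 meiotic markers listed, of 6, was 40.6 to 51.8 and 20.6 to 22.6 RPM, with *Sycp1* below that mean in XGFP-. The same meiotic markers summed to 54.4 to 70.2 RPM in ESCs and 45.04 to 77.6 in EpiLCs, so their sum does not single out meiotic cells here. The part of cells with naive or meiotic markers in the result was not tested. The log2 difference was -0.11 for *Cdk1* (95% interval -0.26 to 0.04), 0.05 for *Ccnb2* (-0.14 to 0.23), -0.13 for *Aurka* (-0.30 to 0.04) and 0.04 for *Aurkb* (-0.11 to 0.18).

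**Figure D3:**
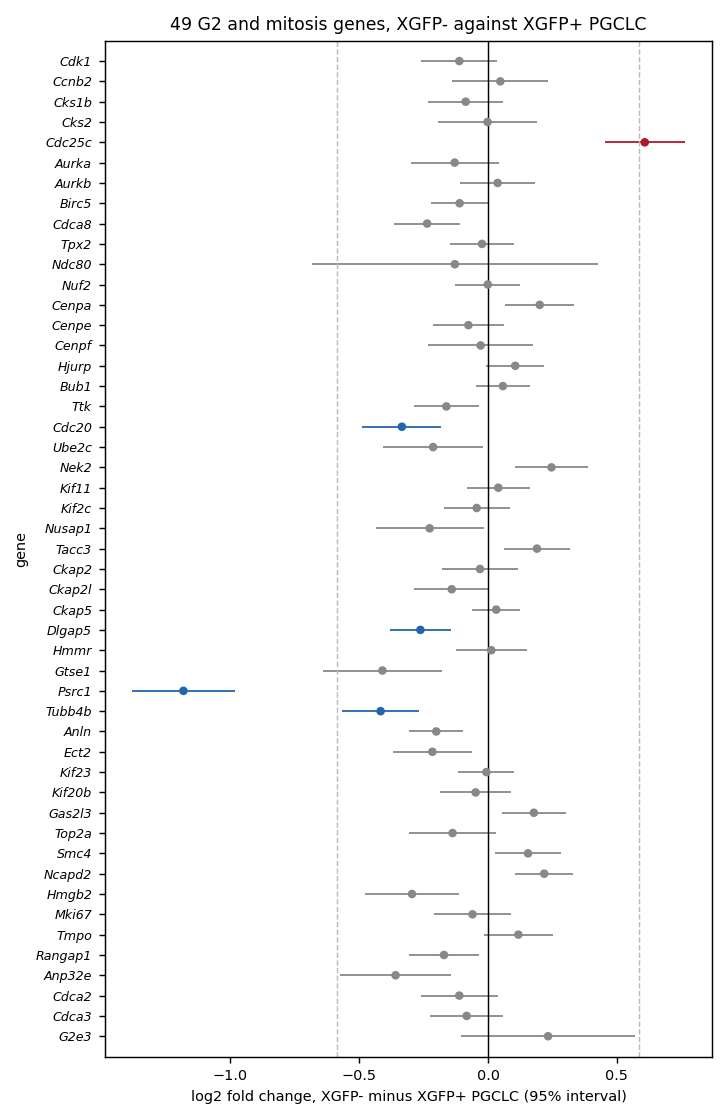
Points are log2 fold changes of the 49 genes between XGFP- and XGFP+ PGCLCs, lines their 95% intervals, and dashed lines mark 1.5-fold in either direction. *Psrc1* (-1.18) and *Cdc25c* (0.61) stand apart, and 45 of 49 intervals lie between the dashed lines (7941 of 16281 over all genes tested).

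Other genes of the cycle were set beside these. Of 56 further G2 and mitosis genes, 3 (5.36%) were called in XGFP- against XGFP+ PGCLCs, all lower, where 12.5% of all genes tested were lower. The 3 genes were the kinesin *Kif4* (-0.54 ± 0.06 (SE), FDR = 6.46e-07), which is on the X chromosome, the kinetochore gene *Ska1* (-0.43) and the kinesin *Kifc1* (-0.32). From EpiLCs to XGFP+ PGCLCs 27.8% of all genes rose and 29.5% fell, and to XGFP- PGCLCs 29.9% and 31.9%. Of the same 56 genes, 20 rose (35.7%) and 9 fell (16.1%) to XGFP+ PGCLCs, and 20 rose and 16 fell (28.6%) to XGFP- PGCLCs. Of 43 genes of S phase and replication, 26 fell (60.5%) and 10 rose (23.3%) in XGFP+ PGCLCs against EpiLCs, with a median of -0.33. In XGFP- PGCLCs 24 fell (55.8%) and 11 rose (25.6%), with a median of -0.35. Their summed level was 8632 ± 271.04 RPM in EpiLCs and 6976 ± 86.96 in XGFP+ PGCLCs (SD, n = 4). That of the 49 G2 and mitosis genes was 10421 ± 408 and 10477 ± 222.3 (SD, n = 4). Per kilobase of exon, though, the sum of the 49 genes was lower in XGFP+ PGCLCs than in EpiLCs.

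In single cells, the summed level of the 49 genes spread widely within every population. The median cell had 10500.3 RPM in ESCs (quartiles 8903 to 12806), 10954 in XGFP+ constitutive cells (8985 to 15866), 11080.2 in XGFPhigh (9197 to 14458), 12801 in XGFPintermediate (8508 to 15666) and 11715 in XGFPlow cells (7866 to 16427). The lowest and the highest rOvary cell had 1730 and 29290.2. Pooled over cells, the sum was 12491 RPM in XGFP+ constitutive (95% Poisson interval 12449 to 12532), 12161 in XGFPhigh (12137 to 12186), 14114 in XGFPintermediate (14088 to 14141) and 12729 in XGFPlow cells (12700.5 to 12757). These intervals cover counting error only, since reads were counted without molecular identifiers and each population is 1 sample, so no test was made. Between the blocks of 96 index numbers of a sequencing lane (12 to 28 cells of a population each), the pooled sum ran from 10942 to 12897 in XGFPhigh, 12018 to 17197 in XGFPintermediate and 11399 to 13805 in XGFPlow. Within the 5 blocks that these 3 populations shared, the pooled sum of XGFPintermediate cells was above those of XGFPhigh and XGFPlow cells in 5 of 5, and that of XGFPlow above XGFPhigh cells in 3 of 5. By the median cell, XGFPintermediate was above XGFPhigh in 3 of 5 and above XGFPlow in 4 of 5. XGFP+ constitutive cells filled a block of their own, and their population and that block cannot be told apart. All 7 gonadal somatic markers of the single-cell table had a median of 0 in each rOvary population, with pooled sums of 6.81 to 12.3 RPM.

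**Figure D4:**
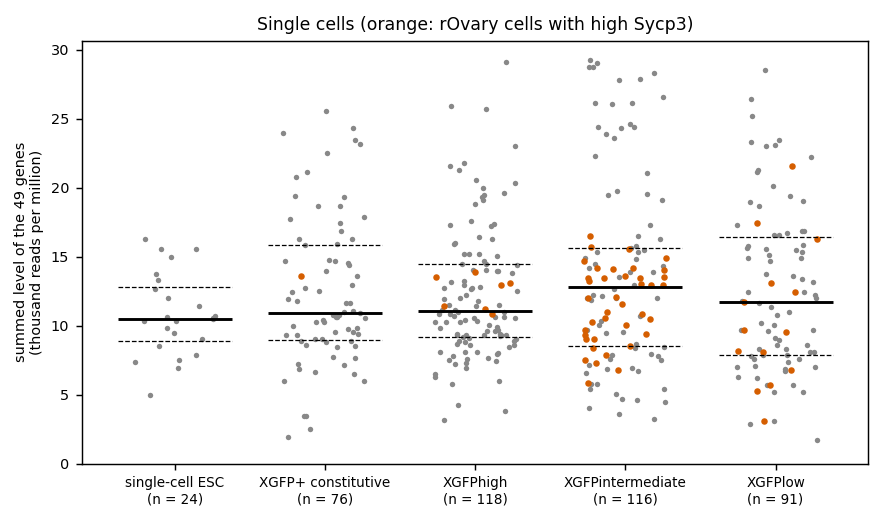
Each point is a cell, the vertical axis gives the summed level of the 49 genes in RPM (labelled in units of 1000), thick lines are medians and dashed lines quartiles. The medians lie between 10500.3 and 12801 in the 5 populations, and the highest cells of each rOvary population are grey, not orange (high *Sycp3*).

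Over all rOvary cells the highest members were *Hmgb2*, a chromatin protein, with 2603 RPM, *Tubb4b* with 717.1 and *Ube2c* with 619.2. Past 1.5-fold, with genes over 10 RPM (48 of the 49, *Gas2l3* being below), 2 members were higher and 1 was lower in XGFPlow than in XGFPhigh cells, against 20.5% and 9.75% of 8459 genes, and 10 were higher and 1 lower in XGFPintermediate than in XGFPhigh cells, against 25.1% and 11.1%. The gene that was lower in both was *Psrc1*. It stood at 80.1 (76.7 to 83.7) RPM in ESCs, 37 (34.7 to 39.3) in XGFP+ constitutive, 49.6 (48.1 to 51.2) in XGFPhigh, 6.41 (5.85 to 7.01) in XGFPintermediate and 4.53 (4.01 to 5.09) in XGFPlow cells, with 95% Poisson intervals in brackets. Its 5 blocks ran from 12.5 to 66.4 in XGFPhigh, from 1.27 to 10.3 in XGFPintermediate and from 2.07 to 8.62 in XGFPlow cells, with no overlap between XGFPhigh and the other populations. *Cdk1* had 500.4 (492.1 to 508.8) in XGFP+ constitutive, 449.5 (444.8 to 454.2) in XGFPhigh, 418.2 (413.6 to 422.8) in XGFPintermediate and 321.7 (317.2 to 326.2) in XGFPlow cells. Its 5 blocks overlapped, from 396.8 to 540.5 in XGFPhigh, 288.4 to 670.2 in XGFPintermediate and 161.2 to 460.0 in XGFPlow cells. The median cell had 423.7 in XGFP+ constitutive, 395.4 in XGFPhigh, 231.4 in XGFPintermediate and 262.35 in XGFPlow cells. *Ccnb2* lay between 450.6 and 520.2 and *Aurkb* between 116.95 and 130.7 in the same populations. *Mki67* lay between 122.6 in XGFPhigh and 207.9 in XGFPintermediate cells, and *Top2a* between 394.3 in XGFPlow and 607.7 in XGFPintermediate cells. *Aurka* ran from 172.6 to 219.2, *Birc5* from 269.9 to 324.7 and *Cdc20* from 391.9 to 593.05. For *Cdc20* the pooled value was highest in XGFPlow cells, but the median cell had 345.9 in XGFP+ constitutive and 235.6 in XGFPlow cells.

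Germ cells with high *Sycp3*, a protein of the meiotic chromosome axis, were compared with the others to ask which G2 and mitosis genes differ beside it. The 61 cells in the upper 15% by *Sycp3* (from 214.02 RPM) were 39 XGFPintermediate, 14 XGFPlow, 7 XGFPhigh and 1 XGFP+ constitutive cells, and 20 of the 401 cells lay within 1.5 times of that limit. Their median level of *Ddx4* was 562.6 against 40.8 RPM in the other 340 cells, of *Stra8* 3050.0 against 1298, and of *Dppa3* 0 against 1067, and they had fewer genes with a read (6738 against 7944) at like depth (617654 and 598081 reads). Pooled, the 49 genes summed to 11669 RPM in them (11635 to 11704) and 13187 in the other cells (13172 to 13203), but the median cells stood at 11715 and 11630, and within XGFPhigh the order of the pooled sums turned (12485 against 12137). Of 48 members over 10 RPM, 8 were more than 1.5-fold higher in these cells and 22 lower, against 26.8% and 29.4% of 8459 genes, with a median ratio of 0.746 against 0.964 over all genes.

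Among the members lower in cells with high *Sycp3* were *Cdk1*, *Ccnb2* and both Aurora kinases. *Psrc1* had 0.451 (0.263 to 0.722) against 27.5 (26.8 to 28.2) RPM (95% Poisson intervals). Its level in cells with high *Sycp3* rests on 17 reads, and the median cell had 0 in both sets. The pooled value also reflects the make-up of the sets, since *Psrc1* was low in XGFPintermediate and XGFPlow cells. Within XGFPhigh, XGFPintermediate and XGFPlow cells its ratio was 0, 0.079 and 0. *Ube2c* had 116.8 (113.3 to 120.3) against 711.5 (707.8 to 715.1) RPM, and its ratio was 0.10, 0.12 and 0.29 within XGFPhigh, XGFPintermediate and XGFPlow cells. *Aurkb* had 28.5 (26.8 to 30.2) against 141.9 (140.3 to 143.5) RPM, and *Ccnb2* had 149.002 (145.1 to 152.9) against 552.003 (548.8 to 555.2) RPM. The Cdk1 partners summed to 780.5 against 1869 RPM, with *Cdk1* itself at 184.01 (179.7 to 188.4) against 455.2 (452.3 to 458.1) RPM, *Cks1b* at a ratio of 0.37 and *Cdc25c* at 0.29. *Aurka* had a ratio of 0.36, *Gtse1* of 0.33 and *Cdc20* of 0.56. Within XGFPlow cells, though, *Cdc20* was at 0.98, *Cks1b* at 0.8 and *Cdk1* at 0.75.

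The members highest in these cells relative to the others were *Bub1* and *Kif23*. *Bub1* had 820.3 (811.2 to 829.5) against 217.5 (215.5 to 219.5) RPM, and its ratio was 4.69, 4.27 and 1.78 within XGFPhigh, XGFPintermediate and XGFPlow cells. *Kif23* had 350.2 (344.2 to 356.2) against 96.7 (95.3 to 98) RPM, with ratios of 6.65, 3.31 and 2.18 in the same order. Over the 5 blocks with at least 5 such cells the ratio ran from 1.67 to 4.68 for *Bub1* and from 1.59 to 4.28 for *Kif23*. *Ckap5* had 353.9 (347.9 to 359.96) against 157.995 (156.3 to 159.7) RPM, but a ratio of 0.83 in 1 block. *Cenpf* (1.85), *Ckap2l* (1.61), *Ect2* (1.58), *Smc4* (1.56) and *Top2a* (1.50) were the others past 1.5-fold, and *Top2a* was at 0.73 within XGFPlow cells. The lowest block ratio was 0.775 for *Cenpf*, 0.645 for *Ckap2l* and 0.727 for *Ect2*. *Mki67* (1.03), *Tacc3* (0.985), *Kif20b* (0.97), *Hmgb2* (0.93) and *Birc5* (0.79) lay within 1.5-fold. With *Gas2l3* included, 7 of the 8 high and 20 of the 23 low members were on the same side of 1 within each of the 3 populations with at least 5 such cells. These members were picked by the ratio pooled over the same cells, so the match is in part built in and is no replication. By comparison, 49 other G2 and mitosis genes of the single-cell table summed to 4938 RPM in cells with high *Sycp3* and 7221 in the other cells, and 42 S phase genes to 10007 and 9716.

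**Figure D5:**
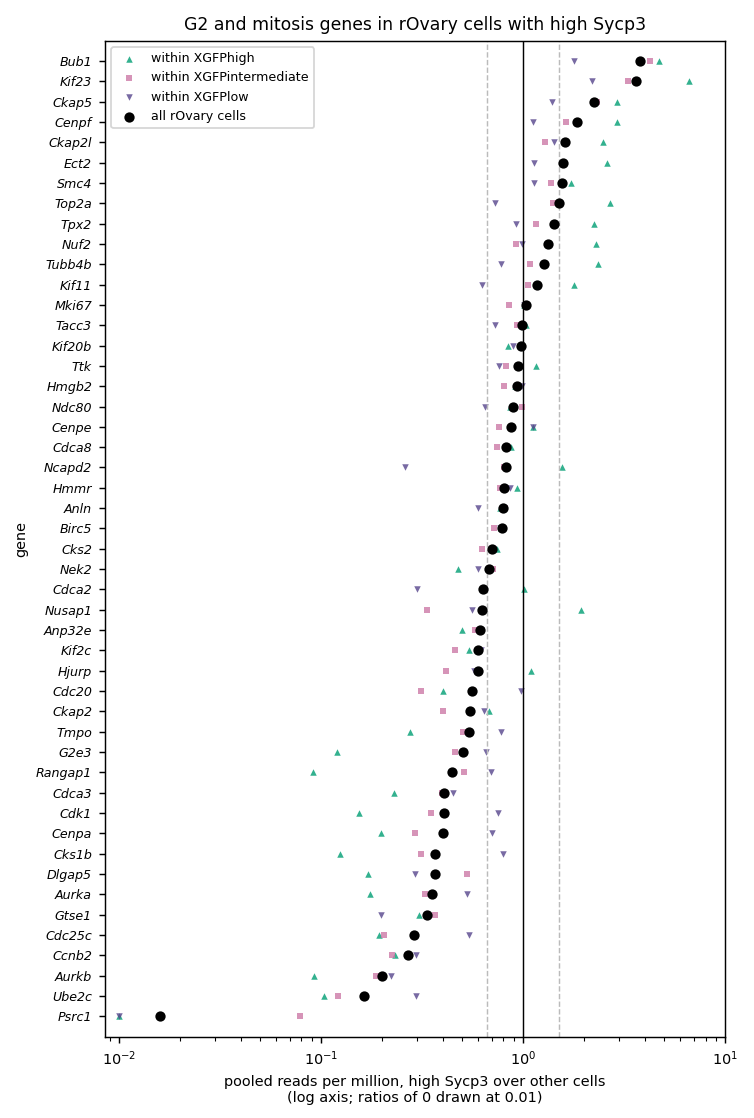
For each of 48 genes the horizontal log axis gives pooled RPM in the 61 rOvary cells with high *Sycp3* over those in the 340 others (black), and the same ratio within 3 sorted populations (coloured), with dashed lines at 1.5-fold. *Bub1* (3.77) and *Kif23* (3.62) are highest and *Psrc1* (0.016, from 17 reads in cells with high *Sycp3*), *Ube2c* (0.16) and *Aurkb* (0.20) lowest.

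Within each rOvary population most of the 49 genes varied together from cell to cell. Spearman's rho of a gene with the sum of the other 48 had a median over genes of 0.61 in XGFP+ constitutive, 0.46 in XGFPhigh, 0.50 in XGFPintermediate and 0.50 in XGFPlow cells (n cells as in the plot of summed levels), and 45, 36, 43 and 43 genes had a rho above 0.3. Over the genes above 10 RPM, the median rho with the sum of the 49 was 0.008, -0.032, 0.019 and 0.017, and 3.36%, 1.73%, 2.16% and 2.79% of genes were above 0.3. *Psrc1* was the lowest member in XGFPhigh, XGFPintermediate and XGFPlow cells (0.105, 0.132 and 0.047) and *Anp32e* in XGFP+ constitutive cells (0.13). The sum of the 49 genes followed that of the other G2 and mitosis genes (rho 0.92, 0.76, 0.84 and 0.88) and ran against that of the S phase genes (-0.25, -0.41, -0.16 and -0.27). With read depth its rho was -0.02, -0.07, 0.22 and 0.10, and with the number of genes per cell 0.41, -0.13, 0.36 and 0.24. These are descriptions over cells that share a library and a total of reads, not tests over replicates.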

How the data were processed

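The 49 genes and the gene lists set beside them were chosen with earlier results of these data known. Bulk values were a signal per gene, which the authors derived from total RNA libraries (stranded) by alignment with STAR (mm10 with masked SNP positions), HTSeq 0.6.1 and division by DESeq2 size factors (DESeq2 1.16 in the submitters' processing notes). Dividing by the smallest step gave whole reads for 100.0% of values within 0.01 in a library. Genes with a mean above 10 (16281) were fitted with limma 3.58.1 on log2(value + 1) over all 16 libraries, with Benjamini-Hochberg adjustment. On the recovered reads, edgeR 4.0.16 called 1850 genes higher and 2124 lower in XGFP- against XGFP+ PGCLCs, and DESeq2 1.42.0 was the other alternative. Data for that comparison (16281 genes) were simulated from the PGCLC libraries alone, without pairing, with changes set in 200 genes of higher counts. On them limma recovered 92% of 2-fold and 52% of 1.5-fold changes, edgeR 94% and 63%, and DESeq2 99% and 79%. The reported fit used all 16 libraries, so these shares are only a guide to it. Same-numbered XGFP+ and XGFP- PGCLC libraries deviated together (r = 0.253, 0.135, 0.2 and 0.307), so the number, which the labels give, pairs them.

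Single-cell values were read counts per gene deposited by the authors from full-length SMART-seq, with no molecular identifiers. Cells with at least 4000 genes, at least 10000 reads, at most 5% mitochondrial reads and, in rOvaries, natural-log *Dazl* above 1 were used (462 of 518 rOvary wells passed the first 3 limits), and scaled to RPM (a total of 1000000 per cell). No doublet caller was run. Poisson intervals are exact at 95%. Values in every library are given for 8 reference genes and the 3 largest called changes each way per comparison. Other values, and *Ndc80*, were chosen after seeing the data. The allelic tables were not used, as the 49 genes have no row in them, and 4 columns there belong to no sample here.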

Additional observations from a re-analysis of the deposited data

Results flagged for a closer look

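Among 84 groups of 4 libraries (20 of the 49 genes and the sum of all 49), 6 held a library whose gap to the nearest other library was a large part of the group's whole range (Dixon's test), and chance alone gives this in about 1 in 20 groups. In normalized counts, *Birc5* had 3425.8 in EpiLC library 1 (others 3241 to 3264.3), *Cenpa* 3430.0 in ESC library 3 (others 3619.1 to 3657.3), *Cenpf* 18251.5 in XGFP- PGCLC library 4 (others 15665.7 to 15874.2) and *Ckap2* 4936.8 in ESC library 4 (others 4072.6 to 4135.5). *Tubb4b* had 16222.7 in XGFP+ PGCLC library 1 (others 16129.6 to 16140.9) and 21337.1 in EpiLC library 2 (others 22695.5 to 22875.7).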

How the results depend on the processing

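No called gene among the 49 changed sign under any alternative run. Counts of genes called, higher then lower, depended mostly on the threshold. At an FDR below 0.05, XGFP- against XGFP+ PGCLCs had 7 higher and 12 lower and EpiLCs against ESCs 16 lower. XGFP+ PGCLCs had 20 higher against EpiLCs and 18 lower against ESCs. Of the 16281 genes tested, 4064 were higher and 3850 lower in the first of these comparisons at that limit. In the others, in the same order, 5306, 6035 and 5684 of all genes were called in the direction given. With an absolute log2 fold change above 1 as well, the counts among the 49 were 0 and 1 for XGFP- against XGFP+ PGCLCs. They were 3 and 0 for EpiLCs against ESCs, and 1 and 2 for XGFP+ PGCLCs against EpiLCs. For XGFP- PGCLCs against EpiLCs they were 1 and 5, and for XGFP+ PGCLCs against ESCs 1 and 1. Among all genes tested, 662 and 1159 passed in the first of these comparisons and 2381 and 1820 in the second. The later ones had 2361 and 2586, 2618 and 3067, and 2163 and 1867, in the same order. DESeq2 and quantile normalization each gave 2 higher genes in XGFP- PGCLCs. With the replicate number as a block (the pairing), 7 genes were lower there instead of 4, and no other count of calls moved by over 1.5 times, though *Cks2*, *Ndc80*, *Cenpa*, *Kif11* and *Ckap2l* gained calls in XGFP+ PGCLCs against EpiLCs. For the other comparisons the same-number correlations ran from -0.01 to 0.16. In EpiLCs against ESCs they were 0.041, 0.108, 0.11 and 0.056, each above those with the other numbers, so weak pairing there remains possible. The main fit left the number out in every comparison, with the block as an alternative.

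Leaving out 1 library gave 1 to 3 higher and 2 to 5 lower genes in XGFP- against XGFP+ PGCLCs (3 without XGFP- PGCLC replicate 3), and 5 to 8 lower genes in EpiLCs against ESCs. *Ccnb2*, *Hjurp*, *Ect2* and *Kif20b* lost their calls in this way in EpiLCs against ESCs, for example without ESC replicate 1. There *Ccnb2* also lost its call without a library of a group not compared, for example XGFP+ PGCLC replicate 1. In XGFP- PGCLCs against EpiLCs, *Aurka*, *Kif11*, *Tacc3*, *Hmmr* and *G2e3* lost theirs, for example without XGFP- PGCLC replicate 1 or 2. So did *Ccnb2*, *Ckap2l*, *Hmmr* and *Gas2l3* in XGFP+ PGCLCs against ESCs, for example without ESC replicate 4. By scaling or tool, calls were lost with libraries scaled to the same total (*Ccnb2* and *Ect2* in EpiLCs against ESCs, *Ckap2l* in XGFP+ PGCLCs against ESCs). With quantile normalization they were lost for *Ccnb2* and *Kif20b* in EpiLCs against ESCs and for *Tmpo* and *G2e3* in XGFP- PGCLCs against EpiLCs. The same setting ended those of *Ckap2l*, *Hmmr* and *Rangap1* in XGFP+ PGCLCs against ESCs. With edgeR, *G2e3* lost its call in XGFP- PGCLCs against EpiLCs and *Ckap2l* in XGFP+ PGCLCs against ESCs. Differences near 0 that were not called changed sign: *Aurkb* in XGFP- against XGFP+ PGCLCs (-0.0012 with quantile normalization, -0.0086 to 0.0831 leaving out 1 library), *Ccnb2* there (-0.0064 to 0.1156 leaving out 1 library), *Cdk1* in EpiLCs against ESCs (-0.0026 with edgeR, -0.0616 to 0.0585 leaving out 1 library) and *Top2a* in XGFP+ PGCLCs against ESCs (0.0806 with quantile normalization). The cause was not tested.

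The summed level in single cells, in RPM, moved past its counting interval, which is narrow, under these alternatives. As a mean over cells it was 10836.3 in ESCs, 12430.16 in XGFP+ constitutive, 12278.39 in XGFPhigh, 13564.44 in XGFPintermediate and 12493.64 in XGFPlow cells. Without the 3 genes with most reads it was 7460.79, 8940.02, 8355.89, 9849.6 and 8844.4 in the same order. With no limit on *Dazl* the 4 rOvary populations had 11897.79, 12264.06, 13297.75 and 11795.97. Lane 2 alone gave 11902.39, 15704.14 and 13242.37 and lane 3 alone 12208.59, 13865.63 and 12642.78 in XGFPhigh, XGFPintermediate and XGFPlow cells. Cells with high *Sycp3* against the others had 12641.24 against 12989.41 with the upper 10%, 10997.56 against 13463.32 with the upper 20%, and 8229.34 against 9155.81 without the 3 genes with most reads. Within populations they had 12484.89 against 12137.27 (XGFPhigh), 11894.68 against 15076.65 (XGFPintermediate) and 10544.92 against 13105.68 (XGFPlow), and the other cells of the XGFP+ constitutive population had 12477.35. With 1 culture per sorted population, differences between single-cell populations carry no error of culture.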
